A study of Macaca mulatta with 6 samples.

Results

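Heat shock proteins and chaperonins, the proteins that help other proteins fold, were examined in granulocyte-macrophage colonies (CFU-GM) of a rhesus macaque model of clonal hematopoiesis. The members are all rows of the count table whose gene symbol names an HSP70 (HSPA), small heat shock (HSPB), HSP90, HSP110, HSPD1 or HSPE1 gene, a J-protein (DNAJA, DNAJB or DNAJC), or a subunit of the chaperonin TRiC (TCP1 and the CCT genes). This gave 71 rows with 68 symbols, out of 32386 rows in all. RNA-seq counts came from 6 colonies, 3 with the label wild type (WT) and 3 with the label TET2 uniallelic (UA, genotype TET2+/-). In both groups the graft was autologous mobilized CD34+ cells that had been through CRISPR/Cas9 treatment, the CD34+ cells plated came from marrow 15 months after transplantation, and the colonies grew from single cells in MethoCult for 14 days. Each colony was genotyped from its own DNA, and the mutations of the UA colonies were predicted to cause loss of function. The WT colonies therefore also come from an edited graft. The labels do not give the number or age of the animals or the guide sequence, so the p-values measure only how far these libraries spread, and that spread may be technical.

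Newly made proteins fold with the help of a relay of chaperones. In the cytosol HSP70 proteins bind unfolded stretches with J-proteins as their partners, HSP90 completes the folding of kinases and receptors, HSP110 proteins exchange the nucleotide of HSP70, and TRiC encloses actin, tubulin and other clients in a double ring built of paralogous subunits. The endoplasmic reticulum (ER) has its own HSP70 (BiP, encoded by HSPA5) and HSP90 (HSP90B1), and mitochondria use HSPA9 together with the HSP60 and HSP10 ring of HSPD1 and HSPE1. Heat shock factor HSF1 drives the inducible cytosolic members, and the unfolded protein response drives those of the ER. Granule-making myeloid cells fold large amounts of secretory protein.

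Total counts ranged from 6334264 to 25485143 per library, and values below are counts scaled to library size with TMM factors (CPM). TET2 itself had 79.3, 92.8 and 109 CPM in WT replicates 1 to 3 and 238, 225 and 229 CPM in UA replicates 1 to 3 (log2 ratio 1.30, edgeR adjusted p = 3.93e-05). Whether reads came from the edited allele was not examined, so this level does not check the labels, and WT and UA below mean the libraries carrying those labels. The groups differed broadly: edgeR called 34.6% of 13768 genes tested higher and 31.4% lower in UA, 66.0% in all, with an adjusted p under 0.05. Colony markers differed as well. Of 13 granulocyte and monocyte markers tested, 9 were higher and 3 lower in UA, and their summed level was 3359 to 3652 CPM in WT and 32421 to 33396 CPM in UA. These markers did not move together. Means of MPO and LYZ rose from 810 to 16743 CPM and from 464 to 7600 CPM. The 3 lower were the monocyte marker CD14 (1147 to 21.7 CPM), SPI1 (174 to 62.6 CPM) and PTPRC (347 to 227 CPM). Stromal and endothelial markers were higher in 12 of 13 and lower in 1, with summed levels of 156 to 166 CPM in WT and 1263 to 1283 CPM in UA. Megakaryocyte markers were higher in 7 of 13 and lower in 2 (577 to 632 against 917 to 935 CPM), and mast cell and eosinophil markers were higher in 5 of 6 (93.2 to 99.95 against 1433 to 1546 CPM), with IL5RA at 0 counts in WT. Erythroid markers were higher in 3 of 6 and lower in 3 (388 to 392 against 630.0 to 676 CPM). The higher erythroid sum in UA came from TFRC, with a mean of 92.4 CPM in WT and 569 CPM in UA, while RHAG fell from 214 to 12.9 CPM. Lymphoid markers were higher in 5 of 8 and lower in 3 (268 to 318 against 334 to 369 CPM), with CD3E at 0 counts in WT. Of 9 immediate-early genes, which respond quickly to handling, 7 were higher and 1 lower (878 to 1003 against 1559 to 1669 CPM). The part of these differences in the chaperone results was not tested. In bulk RNA, fewer cells of a type and less RNA per cell cannot be told apart.

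The libraries also differed in how alike they were within a group. The median coefficient of variation over the chaperone genes tested was 17.9% among WT and 8.37% among UA libraries, and 6.75% between WT replicates 2 and 3. Over all genes tested it was 25.5% among WT and 10.9% among UA libraries. WT replicate 1 stood apart: it was more than 1.5 times below the mean of the other WT libraries for 11 chaperone genes and more than 1.5 times above it for 10. The mean chi-square per gene was 4.21 to 5.21 between UA libraries and 12.2 to 85.1 between WT libraries. PCR copies can raise this value, and differences between libraries weigh more in it at greater depth. It cannot tell technical repeats from separate samples, and the libraries were counted as 3 samples a group because the labels list them so.

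Most chaperone genes that differed were lower in UA, whereas the ER protein BiP and a few J-proteins were higher. Of the 71 members, 63 passed the filter on low counts, and 9 of these were higher, 31 lower and 23 not called. That is 14.3% higher and 49.2% lower, where all genes tested gave 34.6% and 31.4%. Changes are given as the log2 ratio of UA over WT, which is negative where UA is lower. Its median over the 63 was -0.56, against 0.12 over all genes tested. Beyond a log2 ratio of 1 in size, 6 were higher and 20 lower. The 3 UA libraries all lay above the 3 WT libraries for 11 chaperone genes and all below them for 35, 46 of 63 in all. Among all genes tested the shares were 39.2% and 34.0%, 73.2% in all. Without WT replicate 1 the counts were 10 higher and 35 lower, and with the 3 UA libraries summed to 1 sample they were 6 higher and 19 lower. The shares over all genes were 37.4% higher and 31.9% lower without that library, and 18.6% and 14.9% in the summed fit.

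**Figure D1:**
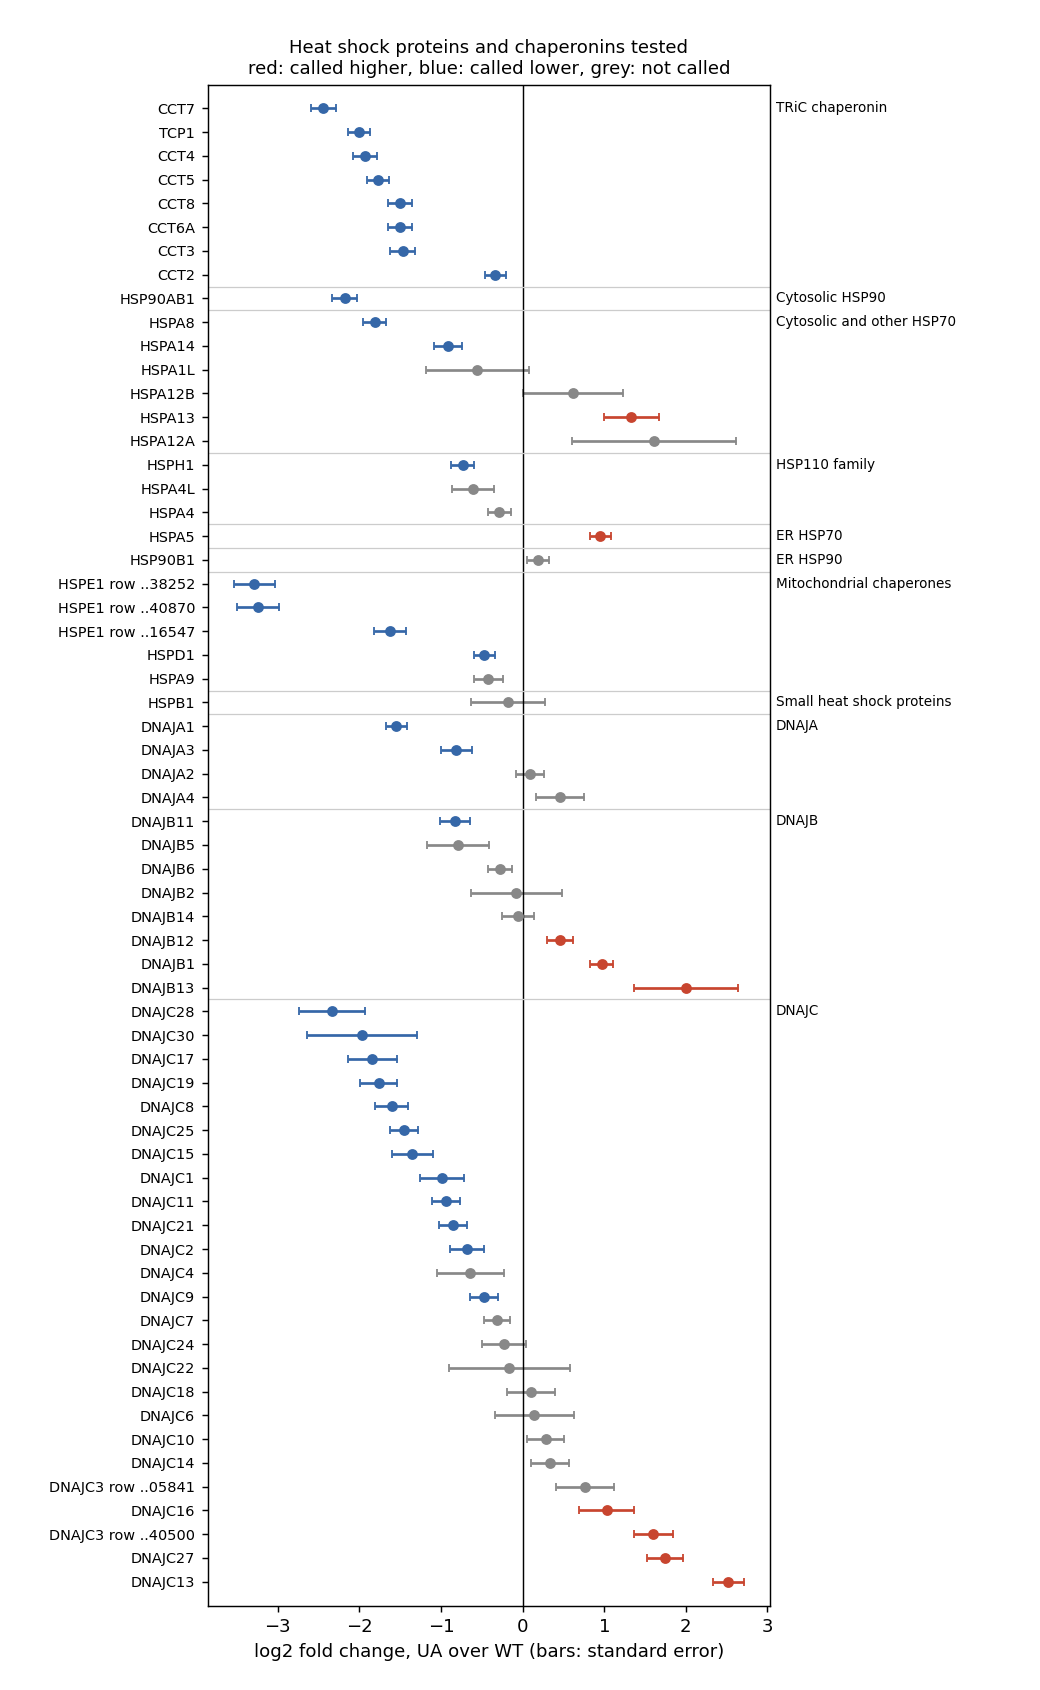
Log2 ratio (fold change) of UA over WT for the 63 chaperone genes tested, grouped by family, with the standard error as bars (rows that share a symbol carry the end of their Ensembl ID). All 8 TRiC subunits lie left of 0, while DNAJC13 lies farthest right, at 2.52.

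All 8 subunits of the chaperonin TRiC were called lower in UA, and 7 of them fell by 1.47 or more on the log2 scale. Over all genes tested, 31.4% were called lower. Summed over the 8 genes, the level was 6769, 5877 and 5771 CPM in WT and 1980, 1843 and 1878 CPM in UA, a 3.23-fold lower mean. CCT7, the eta subunit, had 1524, 1207 and 1273 CPM in WT replicates 1 to 3 and 266, 231 and 240.1 CPM in UA replicates 1 to 3. Every UA library was therefore far below every WT library, and the groups did not come near each other. Its log2 ratio was -2.44 ± 0.15 (standard error, edgeR adjusted p = 5.14e-07), the largest fall of the 8. TCP1, the alpha subunit, had 1284, 1135 and 1101 CPM in WT and 306, 277 and 295 CPM in UA, a 4.01-fold fall (edgeR adjusted p = 1.03e-06). CCT4, the delta subunit, and CCT5, the epsilon subunit, fell from 722 ± 85.4 CPM to 189.6 ± 8.07 CPM and from 964 ± 95.7 to 282 ± 5.18 CPM (SD, n = 3 each). Neither subunit had a UA library within reach of the lowest WT library. CCT8 (theta), CCT6A (zeta) and CCT3 (gamma) formed a close trio, with log2 ratios of -1.50, -1.50 and -1.47.

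CCT2, the beta subunit of the same ring, was the exception. It had 464, 468 and 437 CPM in WT and 366, 346 and 372 CPM in UA, so the groups were apart but by little. Its log2 ratio was -0.34 ± 0.13 (standard error, edgeR adjusted p = 0.0391), and the call was lost under 9 of 16 other settings. Among them were library size alone as the scaling (-0.17, edgeR adjusted p = 0.224), the summed UA libraries (-0.32, 0.508), and leaving out WT replicate 2 (-0.33, 0.0629) or UA replicate 1 (-0.34, 0.133), 2 (-0.30, 0.162) or 3 (-0.36, 0.107). As a share of the counts of the 8 TRiC genes, which does not depend on scaling between libraries, CCT2 made up 6.86%, 7.97% and 7.58% in WT and 18.5%, 18.8% and 19.8% in UA. CCT7 went the other way, from 22.5%, 20.5% and 22.1% in WT to 13.4%, 12.5% and 12.8% in UA. The share of CCT6A did not separate the groups, at 5.71% to 6.73% in WT and 6.66% to 7.68% in UA. Where the deposited table places them, the subunit genes are scattered: CCT2 lies on chromosome 11 from 68345655 to 68361545, CCT7 on chromosome 13 from 74327923 to 74346196, and TCP1 on chromosome 4 from 160882161 to 160906973. That table gives no build, and Mmul_8.0.1 is the one in the submitters' notes.

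**Figure D2:**
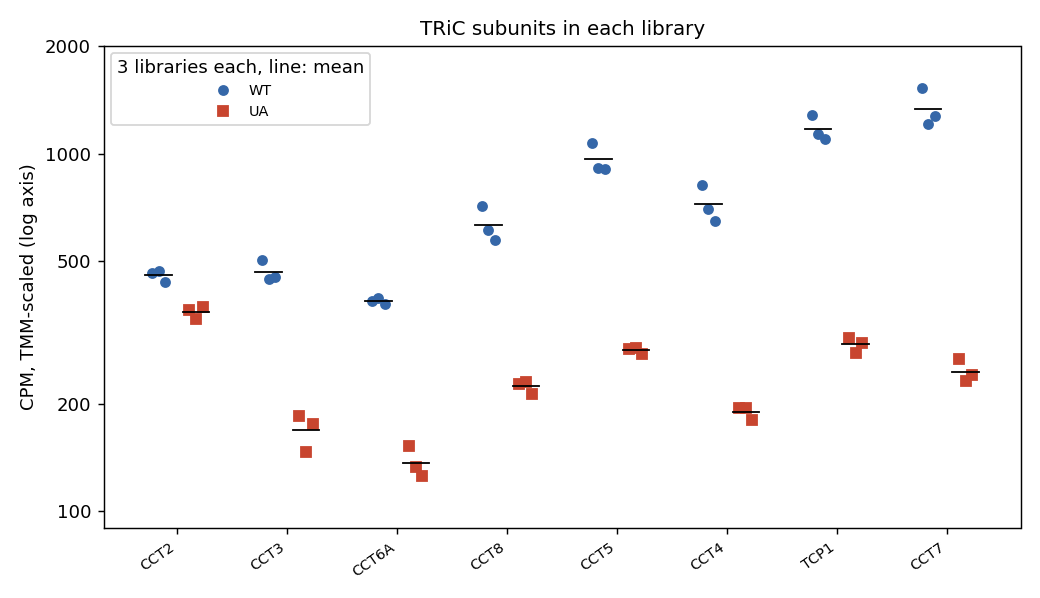
CPM of the 8 TRiC subunits on a log axis, 3 WT libraries as circles and 3 UA libraries as squares with a line at each mean. The groups are close together for CCT2 (457 against 361 CPM) and farthest apart for CCT7 (1335 against 246 CPM).

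The main cytosolic chaperones fell along with TRiC. HSPA8, the constitutive HSP70 of the cytosol, had 2889, 2440.3 and 2400.1 CPM in WT and 753, 702 and 747 CPM in UA. The fall was alike in all 3 UA libraries, with a log2 ratio of -1.81 ± 0.14 (standard error, edgeR adjusted p = 1.79e-06). HSP90AB1, the constitutive cytosolic HSP90, had 220.02, 255 and 266 CPM in WT and 53.3, 52.6 and 57.9 CPM in UA, a log2 ratio of -2.18 ± 0.15 (standard error, edgeR adjusted p = 1.09e-06). Such genes have processed copies elsewhere in primate genomes that can share reads, so their levels are uncertain. HSPA14, a ribosome-bound HSP70, fell from 161 ± 26.5 CPM to 85.7 ± 9.15 CPM, a log2 ratio of -0.91 (edgeR adjusted p = 0.000711, and 0.0559 with the UA libraries summed).

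In the HSP110 family only HSPH1 was called, and the other 2 members had smaller differences of the same sign. HSPH1, which releases nucleotide from HSP70, had 219, 257 and 236 CPM in WT and 137, 138 and 153 CPM in UA. The groups did not overlap, and the log2 ratio was -0.74 ± 0.14 (standard error, edgeR adjusted p = 0.000928, and 0.115 with the UA libraries summed). HSPA4 had 222 ± 16.7 CPM in WT and 182 ± 5.06 CPM in UA (log2 ratio -0.29, edgeR adjusted p = 0.0902), and HSPA4L 21.9 ± 6.43 and 14.3 ± 0.660 CPM (-0.60, 0.0576). Without WT replicate 1 both were called lower, at -0.34 (edgeR adjusted p = 0.00118) and -0.81 (0.00225). In all, HSPA4 was called lower under 3 and HSPA4L under 5 of 16 other settings. The remaining cytosolic HSP70 genes tested, HSPA1L, HSPA12A and HSPA12B, named after their values were seen, were under 5 CPM in every library, and their groups overlapped. HSPA12A was called higher once WT replicate 3 was left out (3.56, edgeR adjusted p = 0.0167), against 1.61 (0.178) with it. With limma-voom and quality weights on all 6 libraries it was also called higher (2.48, limma adjusted p = 0.033).

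The ER chaperone BiP moved opposite to its cytosolic counterpart. HSPA5, which encodes BiP, had 2439, 2270 and 2187 CPM in WT and 4496, 4506 and 4340 CPM in UA. The UA libraries were all near 1 level and well above WT, with a log2 ratio of 0.95 ± 0.13 (standard error, edgeR adjusted p = 6.3e-05). HSP90B1, the HSP90 of the ER, had 798, 743 and 673 CPM in WT and 836, 818 and 867 CPM in UA. Its groups were just apart, but the difference was not called (log2 ratio 0.19 ± 0.13 standard error, edgeR adjusted p = 0.235). It was called higher with library size alone as the scaling (0.35, edgeR adjusted p = 0.0168) or without WT replicate 1 (0.25, 0.00255). HSPA13, an HSP70 without a substrate-binding domain that is found with microsomes, had 14.3, 46.3 and 31.9 CPM in WT and 75.9, 83.5 and 71.3 CPM in UA. WT replicate 1 was the lowest here, and all UA libraries were above all WT libraries (log2 ratio 1.33 ± 0.34 standard error, edgeR adjusted p = 0.005).

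The J-proteins of the ER did not follow BiP as a group. DNAJC3, an ER co-chaperone that also inhibits the kinase PERK, is on 2 rows of the table. The row with more counts (ENSMMUG00000040500) had 19.3, 36.6 and 32.0 CPM in WT and 83.4, 97.7 and 84.2 CPM in UA. It rose by 1.60 in log2 (standard error 0.24, edgeR adjusted p = 0.000149), while the other row (ENSMMUG00000005841) had 4.20 ± 1.18 and 7.14 ± 1.57 CPM and was not called (0.76, 0.0778, and 0.95, 0.0487 without WT replicate 3). DNAJC10, an ER disulfide reductase chosen after its values were seen, had 77.0, 150 and 137 CPM in WT and 137, 139 and 165 CPM in UA, groups that overlapped, with WT replicate 1 the lowest (log2 ratio 0.28, edgeR adjusted p = 0.3). DNAJB11, a BiP partner that binds substrate directly, went down, from 240.2, 166 and 165 CPM in WT to 121, 96.4 and 103 CPM in UA. Its log2 ratio was -0.83 ± 0.19 (standard error, edgeR adjusted p = 0.00231, and 0.119 with the UA libraries summed). DNAJC1, another BiP partner, which was chosen after its values were seen, fell from 26.8 ± 8.55 CPM to 13.7 ± 2.29 CPM (-0.99, 0.00809, and 0.103 with the UA libraries summed). Over 13 rows of genes assigned to the ER lumen or membrane from general knowledge, a grouping made after the values were seen, 5 were higher (38.5%), 2 lower (15.4%) and 6 not called. The share of higher calls was near the 34.6% over all genes tested.

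**Figure D3:**
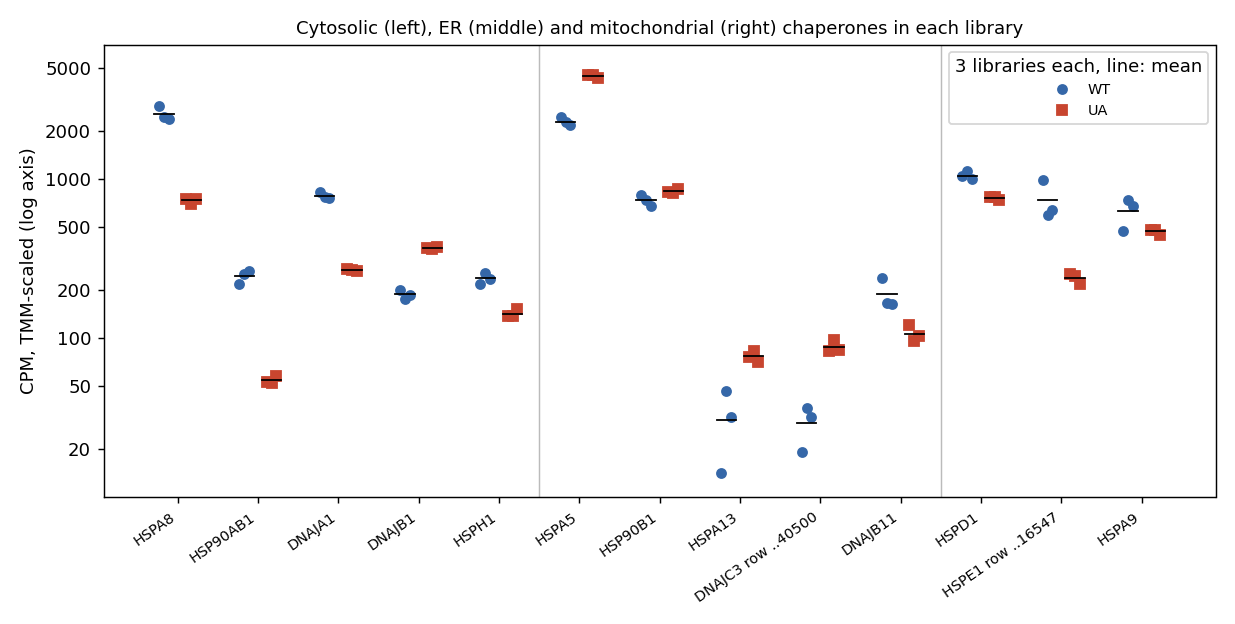
CPM on a log axis of chaperone genes of the cytosol, the ER and the mitochondrion, 3 WT libraries as circles and 3 UA libraries as squares with a line at each mean. UA lies below WT for HSPA8, HSP90AB1 and DNAJA1 and above it for DNAJB1, HSPA5, HSPA13 and the DNAJC3 row.

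Of 5 rows of mitochondrial chaperones 4 were lower (80%), by unequal amounts, where 31.4% of all genes tested were lower. Apart from HSPD1, the lower rows all carry the symbol HSPE1. HSPD1, the HSP60 ring protein, had 1043, 1120.0 and 996 CPM in WT and 767, 771 and 738 CPM in UA, a log2 ratio of -0.47 ± 0.13 (standard error, edgeR adjusted p = 0.00734, and 0.347 with the UA libraries summed). HSPE1, its lid protein HSP10, is on 3 rows. The row that the gene name table calls HSPE1 and the deposited table calls HSPE1-MOB4 (ENSMMUG00000016547) had 984, 598 and 637 CPM in WT and 255, 247 and 219 CPM in UA, a log2 ratio of -1.62 ± 0.20 (standard error, edgeR adjusted p = 3.93e-05). WT replicate 1 was 1.59 times the mean of the other WT libraries in it, and the UA libraries were below all 3. It lies on chromosome 2 from 148841437 to 148893917 in the deposited table. From start to end its span overlaps that of the HSPD1 row by 17962 bp, and whether exons overlap was not examined. The library kit does not keep strand, so reads from any stretch that is exon in both rows cannot be assigned by strand. The other rows, each 309 bp long, lie on chromosome X from 120574149 to 120574457 (ENSMMUG00000038252) and on chromosome 11 from 3627346 to 3627654 (ENSMMUG00000040870). They had log2 ratios of -3.29 and -3.24 (SE 0.25 and 0.26, edgeR adjusted p = 1.88e-06 and 2.36e-06), and near-identical copies of a gene can share its reads.

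HSPA9, the mitochondrial HSP70, had 469, 741 and 673 CPM in WT and 479, 480.0 and 447 CPM in UA. WT replicate 1 lay at the UA level, so the groups overlapped, and the difference was not called (log2 ratio -0.42 ± 0.18 standard error, edgeR adjusted p = 0.0532). Without that library HSPA9 was called lower (-0.58, edgeR adjusted p = 4.52e-07). It was called lower under 6 of 16 other settings in all. Among them were no filter on low counts (-0.44, edgeR adjusted p = 0.0177) and the DESeq2 test (-0.43, DESeq2 adjusted p = 0.0329). J-proteins of the mitochondrion also fell. DNAJC19, of the motor that pulls proteins through the inner membrane, had 203, 110.3 and 126 CPM in WT and 43.8, 42.0 and 43.9 CPM in UA, a log2 ratio of -1.76 ± 0.23 (standard error, edgeR adjusted p = 5.82e-05). DNAJA3 fell from 67.9 ± 12.1 CPM to 38.6 ± 3.36 CPM (-0.81, edgeR adjusted p = 0.00294, and 0.12 with the UA libraries summed) and DNAJC28 from 16.7 ± 7.52 to 3.38 ± 1.18 CPM (-2.34, 0.000432). Of 11 rows assigned to the mitochondrion from general knowledge after the values were seen, 10 were lower (90.9%) and HSPA9 was not called. Over all genes tested, 31.4% were lower. The 10 include the several rows of HSPE1, which can share reads, so they do not stand for 10 separate genes.

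Among the J-proteins of the cytosol and nucleus, DNAJA1 and DNAJB1, which both deliver unfolded proteins to HSP70, moved apart. DNAJA1 had 829, 768 and 758 CPM in WT and 274, 267 and 265 CPM in UA, a log2 ratio of -1.55 ± 0.13 (standard error, edgeR adjusted p = 3.24e-06). DNAJB1, a heat-inducible gene, had 202, 177 and 187 CPM in WT and 369, 362 and 375 CPM in UA, a log2 ratio of 0.97 ± 0.14 (standard error, edgeR adjusted p = 9.59e-05). In both genes the 3 libraries of a label were close together and the groups were well apart. DNAJA2 had 84.2 ± 13.6 CPM in WT and 89.2 ± 7.47 CPM in UA (log2 ratio 0.09, edgeR adjusted p = 0.674), and DNAJB6, a suppressor of aggregation, had 193 ± 24.1 and 160.1 ± 4.91 CPM (-0.27, 0.126). DNAJA2 and DNAJB6 were chosen after their values were seen, and DNAJB6 was called lower once WT replicate 2 was left out (-0.38, edgeR adjusted p = 0.0413).

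Over the whole family, 37 of 41 J-protein rows were tested, of which 7 were higher (18.9%), 15 lower (40.5%) and 15 not called, against 34.6% and 31.4% over all genes tested. DNAJC13, which works at endosomes with the retromer, rose most, from 14.0, 19.8 and 18.9 CPM in WT to 96.9, 108 and 96.0 CPM in UA. Its log2 ratio was 2.52 ± 0.19 (standard error, edgeR adjusted p = 1.85e-06), and the groups were far apart. DNAJC27, a small GTPase fused to a J domain, rose from 8.56 ± 0.714 CPM to 28.7 ± 2.99 CPM (1.74, edgeR adjusted p = 4.28e-05). DNAJC16 rose from 9.38 ± 4.32 CPM to 18.97 ± 2.45 CPM (1.03, 0.0182), a call lost without WT replicate 3 (adjusted p = 0.0503), without UA replicate 3 (0.92, 0.0663) and in the summed UA fit (0.98, 0.143). DNAJB12, an ER membrane J-protein, had 44.1 ± 1.23 CPM in WT and 60.5 ± 2.79 CPM in UA (0.46, 0.026). Its call was lost without WT replicate 3 (0.44, 0.0545) and without UA replicate 1 (0.47, 0.0881), 2 (0.42, 0.107) or 3 (0.48, 0.0674).

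Other J-proteins fell. DNAJC8, found in spliceosomes, had 586, 377 and 352 CPM in WT and 157, 131 and 145 CPM in UA, a log2 ratio of -1.60 ± 0.20 (standard error, edgeR adjusted p = 5.19e-05). DNAJC17, also linked to splicing, fell from 51.0 ± 21.9 CPM to 14.2 ± 1.78 CPM (-1.84, edgeR adjusted p = 0.000257). DNAJC25, a membrane J-protein, fell from 196 ± 39.3 CPM to 71.8 ± 1.12 CPM (-1.45, 3.53e-05). The ribosome-associated J-proteins DNAJC2 and DNAJC21, chosen after their values were seen, fell by 0.69 and 0.85 in log2 (edgeR adjusted p = 0.0129 and 0.000989), and both calls were lost with the UA libraries summed (0.223 and 0.109), that of DNAJC2 also without UA replicate 3 (-0.56, 0.0663).

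Small heat shock proteins, which hold unfolding proteins without using ATP, were almost undetected. HSPB1, known as HSP27, had 3.24, 2.49 and 2.69 CPM in WT and 2.01, 2.88 and 2.66 CPM in UA. The groups overlapped (log2 ratio -0.17 ± 0.45 standard error, edgeR adjusted p = 0.748). HSPB8 had 20 counts over all libraries and HSPB3 had 3, and neither was tested. HSPB6, HSPB7, DNAJB8 and DNAJC5G had 0 counts in all 6 libraries, a limit of 0.137 to 0.443 CPM depending on the library (3 counts, for counting error only). DNAJC12 had 0 counts in WT and 8 in UA, 6 of them in UA replicate 1, and was not tested. With 3 counts taken as the limit for the whole WT group UA was 3.31-fold higher. Counting error in UA is left out of that value, so it is not a lower bound. DNAJC5B had a single count, in UA replicate 2. HSP90AA1, HSPA1A and DNAJB9, which are stress-inducible, matched no row by symbol and were not analysed here. As 13408 rows had no symbol, this does not show that these genes were absent from the counts. The only cytosolic HSP90 gene examined was HSP90AB1.

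Ratios of 2 genes' counts within a library, not set per length, do not depend on how libraries are scaled against each other. The ratio of HSPA5 to HSPA8 counts was 0.844, 0.930 and 0.911 in WT and 5.97, 6.42 and 5.81 in UA. DNAJB1 over DNAJA1 was 0.243, 0.230 and 0.247 in WT and 1.35, 1.36 and 1.41 in UA. HSP90B1 over HSP90AB1 was 3.63, 2.92 and 2.53 in WT and 15.7, 15.5 and 14.98 in UA. Each of these ratios separated the groups by far more than their spread, with a two-sided exact permutation p = 0.1, the smallest that 3 against 3 libraries can give (0.107 adjusted over the 16 ratios and shares compared). Within the ER, DNAJC3 (the row with more counts) over DNAJB11 was 0.165 ± 0.0747 in WT and 0.839 ± 0.163 in UA (SD, n = 3 each, exact permutation p = 0.1). These pairs were chosen after the values of their genes were seen.

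**Figure D4:**
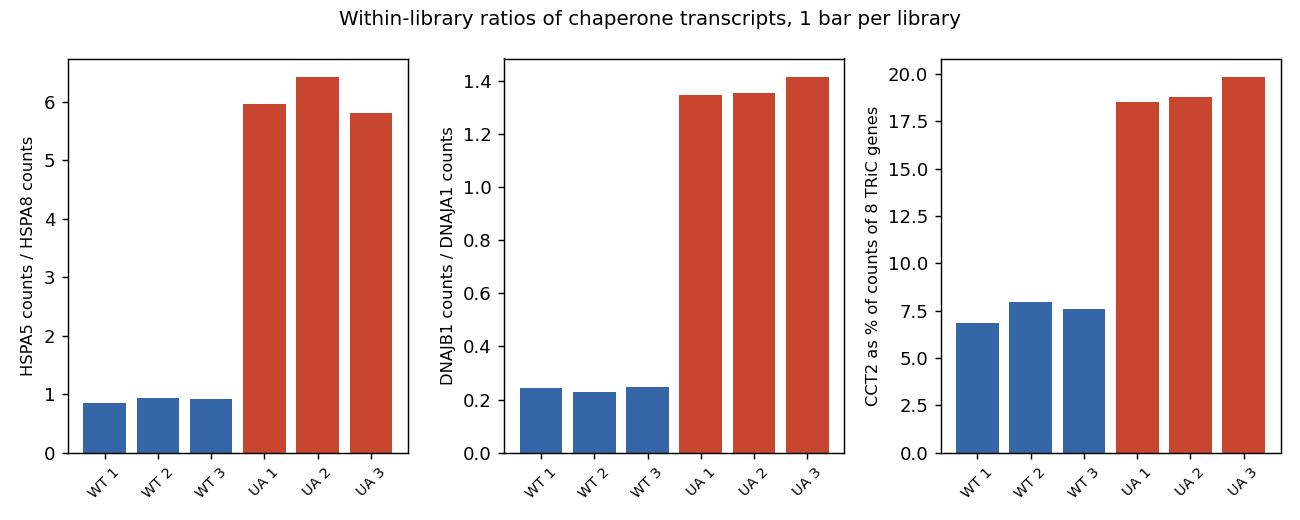
Within-library ratios, 1 bar per library, of HSPA5 to HSPA8 counts, of DNAJB1 to DNAJA1 counts, and CCT2 as a percentage of the counts of the 8 TRiC genes. The 3 UA bars stand above the 3 WT bars in each panel, with HSPA5 over HSPA8 at 5.81 to 6.42 against 0.844 to 0.930.

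Partner genes of these chaperones were compared next, from lists of genes chosen by function. Among heat shock factors and HSP70 or HSP90 co-chaperones, 13 of 23 tested were lower, 5 higher and 5 not called, with a median log2 ratio of -0.70 (0.12 over all genes tested, of which 31.4% were lower). HSF1, the heat shock transcription factor, had 42.3, 31.7 and 50.02 CPM in WT and 34.8, 27.9 and 33.4 CPM in UA, overlapping groups (log2 ratio -0.37 ± 0.21 standard error, edgeR adjusted p = 0.147). It was called lower once WT replicate 2 was left out (-0.54, edgeR adjusted p = 0.0378). HSP90 co-chaperones were among those that fell. STIP1, which hands clients from HSP70 to HSP90, fell from 355 ± 42.7 CPM to 105 ± 1.07 CPM, AHSA1, which stimulates its ATPase, from 292 ± 59.7 to 70.7 ± 6.03 CPM, and PPID, a cyclophilin, from 169.9 ± 2.88 to 41.7 ± 2.75 CPM. HSPBP1, an exchange factor of HSP70, fell from 92.6 ± 19.7 CPM to 16.1 ± 1.16 CPM. The edgeR adjusted p of these 4 was at most 4.41e-06. HSF2 and BAG6, chosen after their values were seen, rose by 0.86 and 1.22 in log2 (edgeR adjusted p = 0.00363 and 0.000108), and the HSF2 call was lost with the UA libraries summed (0.0868).

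Prefoldin and the helpers of TRiC were lower in 7 of 10 tested and not called in 3, with a median log2 ratio of -1.08. Prefoldin carries unfolded actin and tubulin to TRiC. Its subunits PFDN4 and PFDN6 fell by 1.93 and 1.68 on the log2 scale, TXNDC9, a phosducin-like regulator of TRiC, by 2.49, and UXT, of a related complex, by 1.55 (edgeR adjusted p of at most 7.16e-05). Of the mitochondrial partner genes 7 of 9 were lower and 2 not called (median -1.01), where 31.4% of all genes tested were lower. TRAP1, the mitochondrial HSP90, fell from 144 ± 7.71 CPM to 70.8 ± 3.34 CPM, CLPP, a matrix protease, from 207 ± 32.9 to 50.6 ± 4.21 CPM, and GRPEL2, an exchange factor of HSPA9, from 16.3 ± 5.85 to 3.17 ± 1.21 CPM. CLPB, a mitochondrial disaggregase, fell by 1.01 in log2 (edgeR adjusted p of these 4 at most 0.000258).

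Of 22 ER folding genes 10 were higher (45.5%), 7 lower (31.8%) and 5 not called, with a median log2 ratio of 0.38. The share of lower calls was close to the 31.4% over all genes tested, and 34.6% of those were higher. ERN1, which encodes the stress sensor IRE1, had 6.81, 4.78 and 5.47 CPM in WT and 42.0, 51.1 and 46.4 CPM in UA, a log2 ratio of 3.01 ± 0.23 (standard error, edgeR adjusted p = 1.64e-06). ERO1B, an oxidase that recharges disulfide isomerases, rose from 41.1 ± 4.16 CPM to 136 ± 7.10 CPM (1.72, edgeR adjusted p = 5.96e-06). CRELD2, an ER stress gene, had 162, 87.7 and 97.6 CPM in WT and 19.5, 11.3 and 18.5 CPM in UA (-2.82, SE 0.29, 1.22e-05). SERPINH1, the collagen chaperone HSP47, gave 2 counts over the WT libraries and 805 over the UA libraries. On TMM-scaled totals UA was 499.7 times WT, with an exact 95% interval for counting error from 138 to 4133. Both WT counts were in WT replicate 1, and without that library UA was at least 168-fold higher, with 3 counts taken as the limit for the other WT libraries together. The stromal markers moved the same way (12 of 13 higher), and their part in this difference was not tested.

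Another 4 genes of that list were named after their values were seen. The lectin chaperones CALR and CANX rose from 631 ± 61.0 CPM to 1124 ± 31.4 CPM and from 771 ± 242 to 1527 ± 54.3 CPM (log2 ratios 0.83 and 0.99, edgeR adjusted p = 0.000274 and 0.00175). With the UA libraries summed, the CALR call was lost (0.85, 0.051). SDF2L1 and MANF, which work with BiP, fell from 182 ± 85.4 CPM to 30.95 ± 2.67 CPM and from 254 ± 88.8 to 72.2 ± 4.71 CPM (-2.56 and -1.81, edgeR adjusted p = 2.31e-05 and 4.63e-05). Every UA library was above every WT library for CALR and CANX and below every WT library for SDF2L1 and MANF.

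**Figure D5:**
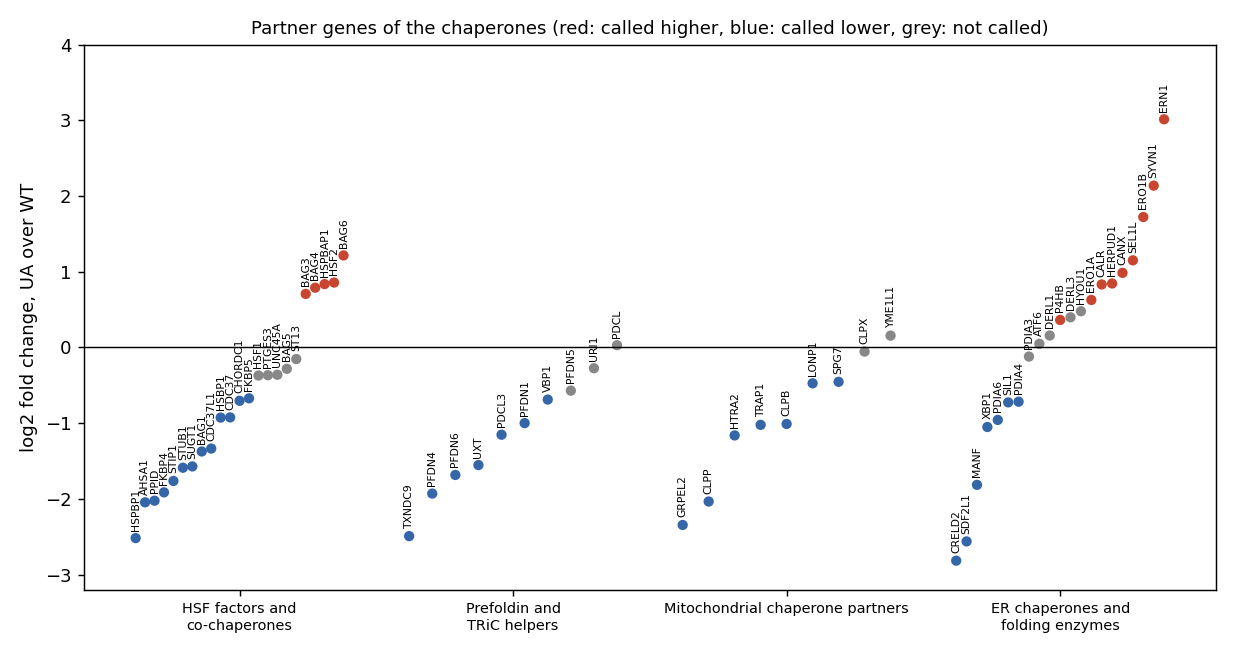
Log2 ratio (fold change) of UA over WT for partner genes in 4 lists, 1 point per gene tested (SERPINH1, with 2 counts in WT, is left out). Points of the prefoldin and mitochondrial lists are below 0 except those of 2 genes that were not called, while those of the ER list run from -2.82 (CRELD2) to 3.01 (ERN1).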

How the data were processed

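SMART-Seq V4 cDNA of picked colonies was made into Nextera XT libraries, per the labels' protocols. The kit marks neither strand nor molecule, so PCR copies count as reads. Mmul_8.0.1 and bcl2fastq are named in the submitters' notes, but the sources used here give no aligner or counter. Raw counts per gene were deposited. The authors also deposited a differential expression table with mean normalized counts (signal), log2 fold changes, a test statistic (score) and p-values; here it gave symbols and coordinates. Symbols came from row names (2529), that table (9226) or a gene name table (7223), and 13408 rows had none. No sequence was used.

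The main test was edgeR 4.0.16 under R 4.3.3 (quasi-likelihood F-test, robust, TMM, filterByExpr with a minimum count of 10 and total of 15) on all 6 libraries, with Benjamini-Hochberg adjustment over all 13768 genes and a threshold of 0.05. The standard error is the log2 ratio over the square root of F. Means are ± SD (n = 3). Where a symbol in a partner or marker list has several rows, the row of highest total was used. Alternatives used DESeq2 1.42.0 and limma 3.58.1 (voom), other scalings and filters, a replicate block, each library left out, the UA libraries summed, thinning, and rows of a symbol summed. All TRiC, HSP90, HSP110, mitochondrial and ER HSP70 members could be named. In the other families the named members were the one of highest CPM and up to 5 called with the largest change in each direction at 5 CPM or more, and in each partner list the 4 of smallest p, with HSF1 always. Untested members could also be named, and other genes named are said to have been chosen after their values were seen. Members and lists were chosen with earlier results of these data known.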

Additional observations from a re-analysis of the deposited data

How the results depend on the processing

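No chaperone gene called in the comparison changed direction under any of the 16 alternatives, and 25 of the 40 called genes (6 higher, 19 lower) kept their call in all of them in which they were tested. A further 15 of the 63 were called in none. The counts of chaperone genes were 6 to 10 higher and 28 to 35 lower with each library left out, and those of partner genes 12 to 17 higher and 31 to 37 lower. With the 3 UA libraries summed to 1 sample, where all spread comes from WT, 19 chaperone genes were called lower and 6 partner genes higher, against 31 and 15. That fit has fewer samples, and the shares over all genes fell with it, to 18.6% higher and 14.9% lower. PDIA3, a disulfide isomerase not called in the comparison (-0.12), reversed to 0.16 without WT replicate 1 (edgeR adjusted p = 0.0475) and ranged down to -0.28 without WT replicate 3, and the cause was not tested. Library size alone as the scaling moved the median log2 ratio of all genes from 0.12 to 0.28 and that of the chaperone genes from -0.56 to -0.39. With a replicate block, 8 chaperone genes were higher and 31 lower, and 15 partner genes higher and 32 lower. CCT2 (edgeR adjusted p = 0.0709) and DNAJB12 (0.0578) lost their call under the block, and HSPA9 gained one (0.0498). Same-numbered libraries had correlations of 0.0129, 0.022 and 0.0132 in their deviations from the group means, too low to take the numbers as pairs. Each library still correlated best with its own number, a hint from the data and not the design. Leaving out 1 library also ended the calls of 3 genes outside the rule for named genes, DNAJC9 (any UA library, -0.41 without UA replicate 3), DNAJB13 (UA replicate 1 or 3, 1.87 without the former) and DNAJC30 (WT replicate 2, UA replicate 1 or 2, -1.45 without the first of these). At these depths, the 8 members with 20 counts or fewer in all were not tested.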

Other observations

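The authors' deposited table of differential expression does not follow the counts of these 6 libraries for the chaperone genes. It lists 45 of them, and all 25 of those that were lower in UA by the counts have a positive log2 fold change there, with a median of 4.18. It also lists DNAJB8 with a mean normalized count of 3.53 and HSPB6 with 7.19, both of which have 0 counts in all 6 libraries here. Of the 27 listed genes that were called here, 25 have the opposite sign in the authors' deposited table. HSPA5 and HSPA13, higher in UA with log2 ratios of 0.95 and 1.33, have the same sign there, with 5.51 and 1.83. The sources used here do not say which libraries it compares or in which direction. A reversed direction would not bring all signs together, because HSPA5 and HSPA13 would then be opposite. The reason for the difference was not tested. No result of the report rests on its values.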
